A study of Mus musculus with 9 samples.

Results

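*Il13ra2* and 6 related genes of type 2 cytokine signaling (*Il13ra1*, *Il4ra*, *Il33*, *Il1rl1*, *Tslp* and *Stat6*) were followed through the RNA of 9 mammary tumors. The 7 genes were chosen by symbol from a table of 35275 Ensembl genes, and *Il13ra2* was selected on its own counts, being higher in treated than in saline tumors. Its difference from saline is therefore given as a description without a test. All 7 genes passed the filter on low counts that kept 15821 genes for testing, but *Il13ra2* passed through the tumors in which it was high, with 8 counts or fewer in 4 of the 9 tumors.

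The tumors arose spontaneously in Brca1Co/Co;MMTV-Cre;p53+/- mice, in which Cre under the MMTV promoter deletes the conditional *Brca1* alleles and 1 copy of *Trp53* is missing, and all 9 tumors shared this genotype. Treatment began at a tumor diameter of 4 to 5 mm and comprised 5 doses, 3 per week. The saline group received saline, the i.v. TLZ group free Talazoparib, a PARP inhibitor, at 0.33 mg/kg by vein, and the NanoTLZ group the same dose of Talazoparib in a liposomal nanoparticle, also by vein. Each group had 3 tumors. Tumors given empty nanoparticles were not analysed here, so the carrier and the drug cannot be told apart in the NanoTLZ group. MMTV is active in mammary epithelium, and the RNA came from whole tumors, so that counts add up epithelial, stromal and immune cells. The labels give no ages for the mice sampled. Total counts per tumor ranged from 17538380 to 21194980. Levels are given as CPM, the count of a gene relative to the total of its library after TMM scaling, which makes libraries comparable. Both treated groups are compared with the same 3 saline tumors, so those comparisons are not independent of each other.

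Interleukin-4 and interleukin-13 are the central ligands of type 2 immunity, and they signal through a receptor of IL-4Rα and IL-13Rα1 that activates the transcription factor STAT6. IL-13Rα2, the product of *Il13ra2*, binds interleukin-13 tightly without activating STAT6 and has long been described as a decoy receptor. Interleukin-33 and TSLP are alarm cytokines of epithelium and stroma that act on innate lymphoid cells, mast cells and other leukocytes, interleukin-33 through ST2, the product of *Il1rl1*.

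The tumors carried the epithelial markers that their label implies. *Epcam* and *Krt8* were present in every tumor, and the 7 luminal markers summed to between 2858 and 7330 CPM. The libraries at the extremes were saline tumor 3, saline tumor 1 and i.v. TLZ tumor 2, which were the lowest of the 9 for 24.4%, 15.9% and 14.8% of all tested genes and the highest for 25.7%, 16.6% and 14.3%. Saline tumor 1 was the highest for 8 of 30 tested genes of the type 2 pathway list described further on, and i.v. TLZ tumor 2 for 3. Saline tumor 3 had 1849 CPM of the basal keratin *Krt5*, against 2.30 to 72.9 CPM in the other 8 tumors, and 676 summed CPM of 8 skeletal muscle markers, against 27.8 and 176 CPM in the other saline tumors and 3.99 to 7.85 CPM in the treated tumors. I.v. TLZ tumor 2 had the lowest summed levels of fibroblast, T cell and basal epithelial markers of all 9 tumors, and was the lowest for 5 of 9, 6 of 8 and 4 of 7 single markers. Among the other fibroblast markers, *Pdgfra* (31.2 CPM) and *Dcn* (30.3 CPM) lay above every saline tumor there. For several results the values without these tumors are also given. In bulk RNA, fewer cells of a type and less RNA per cell cannot be told apart.

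*Il13ra2* (ENSMUSG00000031289) lies on the minus strand of chromosome X at chrX:147383476-147429192 in GRCm38. In saline tumors 1, 2 and 3 it had 4, 8 and 5 counts, or 0.229, 0.381 and 0.229 CPM. In i.v. TLZ tumors 1, 2 and 3 it had 93, 2 and 56 counts, or 4.51, 0.109 and 3.03 CPM. In NanoTLZ tumors 1, 2 and 3 it had 38, 39 and 24 counts, or 1.83, 2.13 and 1.24 CPM. Thus 5 of 6 treated tumors lay above every saline tumor, and i.v. TLZ tumor 2 lay below every saline tumor and was the lowest of all 9. The exact Poisson 95% interval of that tumor ran from 0.0132 to 0.395 CPM and overlapped the intervals of all 3 saline tumors. Overlap of intervals is not a test, and a difference from them was not tested. Its 2 counts lay under the floor of 3 counts, which is 0.164 CPM in that library. Such intervals cover counting error only.

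**Figure D1:**
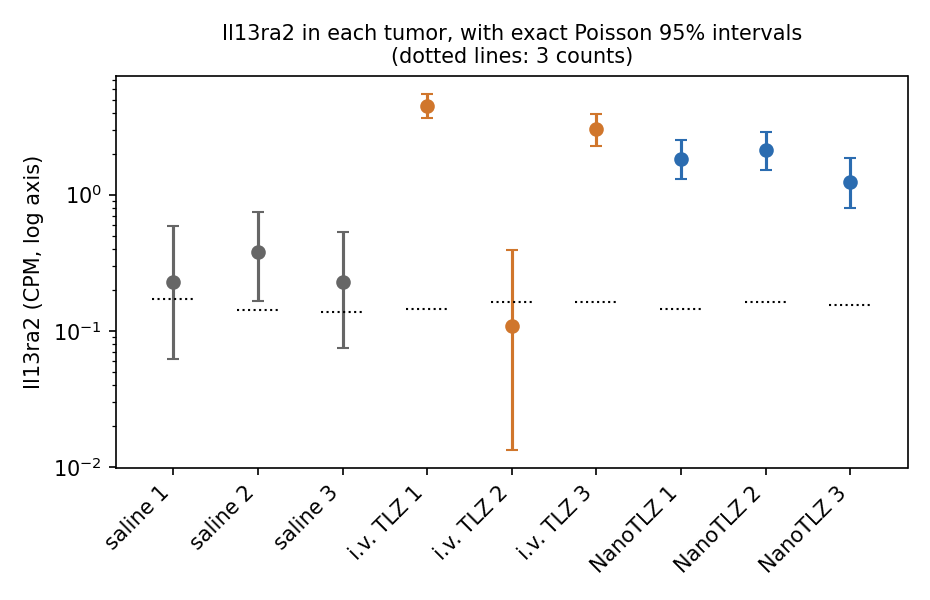
*Il13ra2* in CPM on a log axis for each of the 9 tumors, with exact Poisson 95% intervals as bars and the level of 3 counts as dotted lines. I.v. TLZ tumor 2 sits at 0.109 CPM beside the saline tumors, while the other treated tumors sit between 1.24 and 4.51 CPM.

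The group means of *Il13ra2* were 0.280 ± 0.0878 CPM in saline, 2.55 ± 2.24 CPM after i.v. TLZ and 1.73 ± 0.451 CPM after NanoTLZ (SD, n = 3 each). The order of the means was i.v. TLZ, NanoTLZ and saline, and the treated groups overlapped each other. The fitted log2 difference from saline was 3.16 after i.v. TLZ, 2.60 after NanoTLZ and 2.88 for both treatments together. No standard error is given for it, since *Il13ra2* was chosen on this difference. Without i.v. TLZ tumor 2, the log2 difference of i.v. TLZ from saline was 3.72.

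The comparison of the formulations did not enter the choice of *Il13ra2* and was tested. NanoTLZ minus i.v. TLZ was -0.56 ± 0.90 (standard error, SE) on the log2 scale, with an unadjusted p of 0.549 and an adjusted p of 1.0 (edgeR quasi-likelihood F-test, Benjamini-Hochberg over 15821 genes). The sign of this difference depended on the method and on 1 tumor. It was 0.43 with limma-voom and 0.14 without i.v. TLZ tumor 1, and it was -1.12 (unadjusted p = 0.0677) without i.v. TLZ tumor 2. No difference of *Il13ra2* between the formulations was therefore detected in either direction, which does not show that their levels were equal. P-values here measure the spread between tumors, which the labels list as separate samples without naming the animals.

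The promoter of *Il13ra2* is shown as that of the gene whose level set 5 of 6 treated tumors apart from saline. Of the 7 genes, 6 had a RefSeq promoter (GRCm38.p6) that was searched, with 8 promoters in all, each from 250 bases before to 50 bases after a start. The motifs were TGANTCA, bound by AP-1 proteins such as FOS and JUN, TTCNNNNGAA, the spacing preferred by STAT6, and TTCNNNGAA, used by other STAT proteins. All 3 are palindromes, so a match counts for both strands, and the matches found do not overlap. They occur in 7.81%, 6.95% and 8.30% of 32851 promoters of this length. The *Il13ra2* promoter, chrX:147429143-147429442 on the minus strand, held 1 AP-1 match, in capitals, 193 bases before the start, and no match to either STAT motif.
Il13ra2: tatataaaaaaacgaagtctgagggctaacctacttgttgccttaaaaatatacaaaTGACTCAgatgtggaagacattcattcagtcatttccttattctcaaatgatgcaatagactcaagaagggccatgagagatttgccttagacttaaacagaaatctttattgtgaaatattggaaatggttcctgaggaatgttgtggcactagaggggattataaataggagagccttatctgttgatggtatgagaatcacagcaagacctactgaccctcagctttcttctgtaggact
Among the promoters searched of the other genes, TTCNNNNGAA occurred in 1, that of *Il33*, 36 bases before the start, and the other motifs in none. A match is a description of the letters only.

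Levels between genes were compared per kilobase of exon. *Il13ra1* exceeded *Il13ra2* by factors of 689, 255 and 165 in the saline tumors. The factors were 12.9 and 24.2 in i.v. TLZ tumors 1 and 3, and 44.7, 36.5 and 58.0 in the NanoTLZ tumors, and none is given for i.v. TLZ tumor 2 with its 2 counts of *Il13ra2*. *Il13ra2* thus reached at most 7.77% of the level of *Il13ra1*. Median levels over 9 tumors were 48.2 CPM per kilobase for *Il4ra*, 32.2 for *Il13ra1* and 25.7 for *Stat6*, against 1.93 for *Il33*, 1.31 for *Tslp*, 0.544 for *Il13ra2* and 0.105 for *Il1rl1*.

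Of the ligands, interleukin-4 and interleukin-13 themselves were scarce. *Il4* had 0.273 to 1.54 CPM, and *Il13*, *Il5*, *Il9* and *Il25* totalled 11, 1, 4 and 6 counts over the 9 tumors. These 4 genes did not pass the low count filter of the edgeR fit. The alarm cytokines were measurable in most tumors.

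*Il33* (ENSMUSG00000024810, chr19:29925114-29960718) had 12.4, 2.10 and 1.24 CPM in saline tumors 1, 2 and 3. It had 11.4, 5.52 and 3.46 CPM in the i.v. TLZ tumors and 5.68, 5.57 and 9.21 CPM in the NanoTLZ tumors. Saline tumor 1 was the highest and saline tumors 2 and 3 the lowest, so the groups overlapped throughout. The log2 differences from saline were 0.38 ± 0.80 after i.v. TLZ (edgeR adjusted p = 0.893) and 0.39 ± 0.80 after NanoTLZ (edgeR adjusted p = 0.899). Without saline tumor 1 they were 2.03 and 2.06, with adjusted p of 0.446 and 0.492, and without saline tumor 3 they were -0.07 and -0.05.

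*Tslp* (ENSMUSG00000024379, chromosome 18) had 1.95, 7.20 and 0.505 CPM in the saline tumors. It had 1.16, 19.3 and 1.14 CPM in i.v. TLZ tumors 1, 2 and 3, and 0.193, 1.75 and 4.35 CPM in the NanoTLZ tumors. The highest value was in i.v. TLZ tumor 2, the tumor with the lowest *Il13ra2*. The log2 difference of i.v. TLZ from saline was 1.16 ± 1.34 (edgeR adjusted p = 0.782) with this tumor and -1.48 without it. After NanoTLZ it was -0.62 ± 1.34 (edgeR adjusted p = 0.903), and the groups overlapped. The NanoTLZ difference was 0.78 without saline tumor 2 and -1.71 without NanoTLZ tumor 3.

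Of the receptors, *Il13ra1* (ENSMUSG00000017057, chrX:36112110-36171259), which encodes the IL-13-binding chain of the signaling receptor, had 257, 158 and 61.7 CPM in the saline tumors. It had 94.4, 113 and 119.5 CPM in the i.v. TLZ tumors and 133, 126 and 117 CPM in the NanoTLZ tumors. All treated tumors lay between saline tumors 2 and 3, and the saline tumors spanned a wider range than both treated groups together. The log2 differences from saline were -0.54 ± 0.42 after i.v. TLZ (edgeR adjusted p = 0.657) and -0.34 ± 0.42 after NanoTLZ (edgeR adjusted p = 0.812). Without saline tumor 3 they were -0.91 and -0.69, with adjusted p of 0.447 and 0.740. Without saline tumor 1 they were -0.01 and 0.22.

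*Il4ra* (ENSMUSG00000030748, chr7:125552120-125579474), the chain shared by receptors of interleukin-4 and interleukin-13, had 535, 401 and 89.5 CPM in the saline tumors. It had 376, 264 and 216 CPM in the i.v. TLZ tumors and 244, 319.6 and 289 CPM in the NanoTLZ tumors. As for *Il13ra1*, saline tumors 1 and 3 were the highest and the lowest of all 9. The log2 differences from saline were -0.26 ± 0.53 after i.v. TLZ (edgeR adjusted p = 0.889) and -0.27 ± 0.53 after NanoTLZ (edgeR adjusted p = 0.894). Without saline tumor 3 they were -0.70 and -0.69, with adjusted p of 0.522 and 0.755, and without saline tumor 1 they were 0.22 and 0.24.

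*Il1rl1* (ENSMUSG00000026069, chr1:40429570-40465415), the receptor of interleukin-33, had 0.343, 0.477 and 0.642 CPM in the saline tumors and 0.824, 0.547 and 0.920 CPM in the i.v. TLZ tumors. In NanoTLZ tumors 1, 2 and 3 it had 0.818, 30.9 and 0.724 CPM. NanoTLZ tumor 2 alone, with 567 counts, set this group apart, while the other 8 tumors had between 6 and 17 counts. The log2 difference of NanoTLZ from saline was 4.45 ± 1.35 (unadjusted p = 0.00804, edgeR adjusted p = 0.552) with this tumor and 0.68 ± 0.64 (adjusted p = 0.853) without it. NanoTLZ minus i.v. TLZ was 3.81 ± 1.30 (edgeR adjusted p = 1.0) with it and 0.03 without it.

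The signal transducer *Stat6* (ENSMUSG00000002147, chr10:127642986-127660957) had 104, 113 and 63.4 CPM in the saline tumors. It had 127, 63.6 and 123 CPM in the i.v. TLZ tumors and 89.7, 149 and 114 CPM in the NanoTLZ tumors. I.v. TLZ tumor 2 and saline tumor 3 were the lowest, and the groups overlapped. The log2 differences from saline were 0.16 ± 0.35 after i.v. TLZ (edgeR adjusted p = 0.896) and 0.33 ± 0.35 after NanoTLZ (edgeR adjusted p = 0.779). *Stat6* overlaps *Nab2* on the opposite strand, and without a stated strand setting reads from the stretch they share cannot be told apart. The size of that stretch was not measured.

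**Figure D2:**
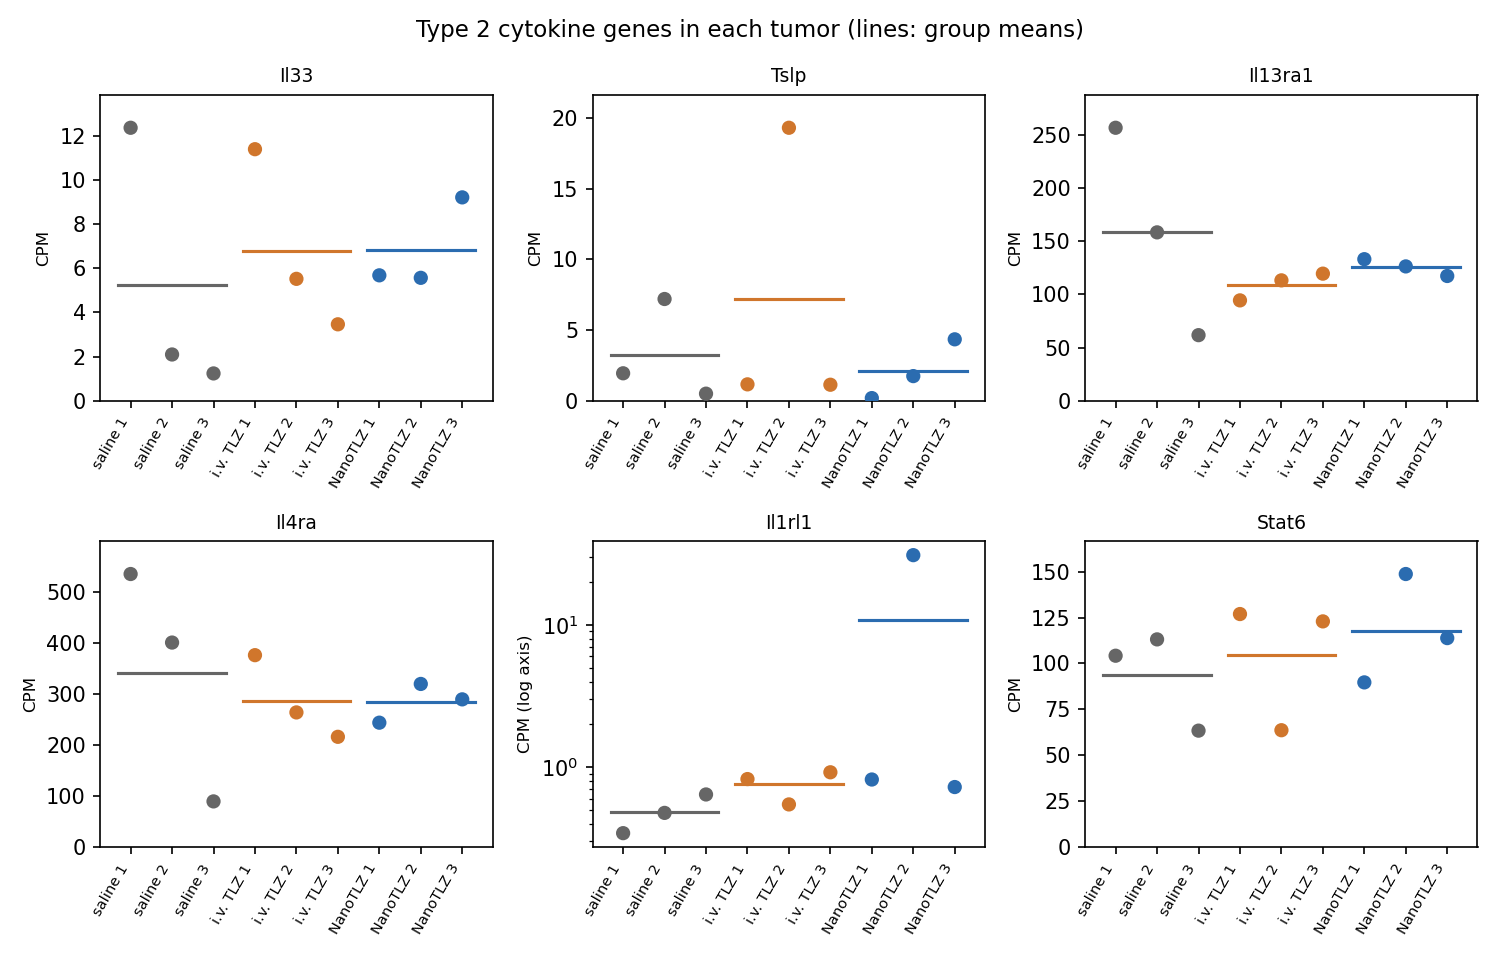
CPM of *Il33*, *Tslp*, *Il13ra1*, *Il4ra*, *Il1rl1* (log axis) and *Stat6* in each of the 9 tumors, with lines at the group means. The widest spread of *Il13ra1* and *Il4ra* is within saline, and the NanoTLZ mean of *Il1rl1* is set by NanoTLZ tumor 2 at 30.9 CPM.

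Beyond these genes, a list of the type 2 pathway without *Il13ra2* held 36 genes in the table, of which 30 passed the low count filter. At an adjusted p under 0.05, edgeR and limma-voom called 0 of the 30 in each of the 4 comparisons. DESeq2 fitted to all 9 tumors called 0 of the 29 listed genes to which it gave an adjusted p against saline and 0 of 35 between the formulations. It gave none to *Il1rl1*. Over all tested genes edgeR called 0.0% for i.v. TLZ against saline, 0.00632% for NanoTLZ against saline, 0.019% for both treatments against saline and 0.0% for NanoTLZ against i.v. TLZ. DESeq2 called 1.1%, 0.693%, 1.56% and 0.0119% of its genes in the same comparisons, and limma-voom 0.0%, 0.00632%, 0.00632% and 0.0%. At an unadjusted p under 0.05, edgeR had 2 of the 30 genes for i.v. TLZ (10.4% of all genes), 3 for NanoTLZ (8.99%), 2 for both treatments (13.1%) and 1 for NanoTLZ against i.v. TLZ (1.68%), and each of these was higher in the first-named group. Without saline tumor 3 the counts against saline were 6 for i.v. TLZ (9.54% of all genes in that fit), 6 for NanoTLZ (6.66%) and 8 for both treatments (9.27%), of which 4, 3 and 7 were lower, among them *Il13ra1* in each. The smallest edgeR adjusted p was then 0.407. Without saline tumor 1 the counts were 2 (10.4%), 4 (9.95%) and 2 (12.8%), all higher and with *Il33* in each, and the smallest adjusted p was 0.292. Without i.v. TLZ tumor 2 they were 2 (9.48%), 3 (9.86%) and 3 (13.8%), all higher but *Irs2* for both treatments. The median log2 difference from saline of the 30 genes was -0.01 after i.v. TLZ and 0.00 after NanoTLZ, beside -0.03 and -0.09 over all tested genes. Without saline tumor 1 these medians were 0.28 and 0.27, beside 0.01 and -0.01 over all tested genes. Without saline tumor 3 they were -0.12 and -0.10, beside 0.05 and 0.01.

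With all 9 tumors, the genes with an unadjusted p under 0.05 were among the receptors of the list. Since their counts against saline lay near or below the shares of all genes, and no enrichment was tested, nothing is read from their roles. *Il7r* and *Crlf2* encode the chains of the TSLP receptor. *Il7r* had 0.620 to 1.43 CPM in saline, 1.31 to 5.465 CPM after i.v. TLZ and 2.59 to 6.50 CPM after NanoTLZ. Its log2 differences were 1.57 ± 0.65 (edgeR adjusted p = 0.457) and 1.89 ± 0.65 (edgeR adjusted p = 0.552), with i.v. TLZ tumor 2 inside the saline range. *Crlf2* had 14.1, 30.8 and 26.3 CPM in saline, 42.5, 43.3 and 42.6 CPM after i.v. TLZ and 24.8, 35.15 and 35.0 CPM after NanoTLZ. For *Crlf2* the log2 differences were 0.85 ± 0.32 (edgeR adjusted p = 0.444) after i.v. TLZ and 0.41 ± 0.32 (edgeR adjusted p = 0.686) after NanoTLZ. *Il2rg*, the common gamma chain, had 2.11 to 8.01 CPM in saline and 12.0 to 14.1 CPM after NanoTLZ, with a log2 difference of 1.64 ± 0.56 (edgeR adjusted p = 0.552). Within saline, *Il2rg* was highest in tumor 2, as was the sum of the leukocyte and macrophage markers, at 802, 2198 and 503 CPM. For both treatments together, all 10 leukocyte and macrophage markers (median log2 difference 0.64) and all 8 T cell markers (median 1.08) were positive, and edgeR called none. After i.v. TLZ alone, *Ptprc* (-0.28), *Fcgr1* (-0.24), *Cd4* (-0.22) and *Trac* (-0.20) were negative and the other markers of both lists positive. The part of these cells in the levels of *Il7r*, *Crlf2* and *Il2rg* was not tested.

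**Figure D3:**
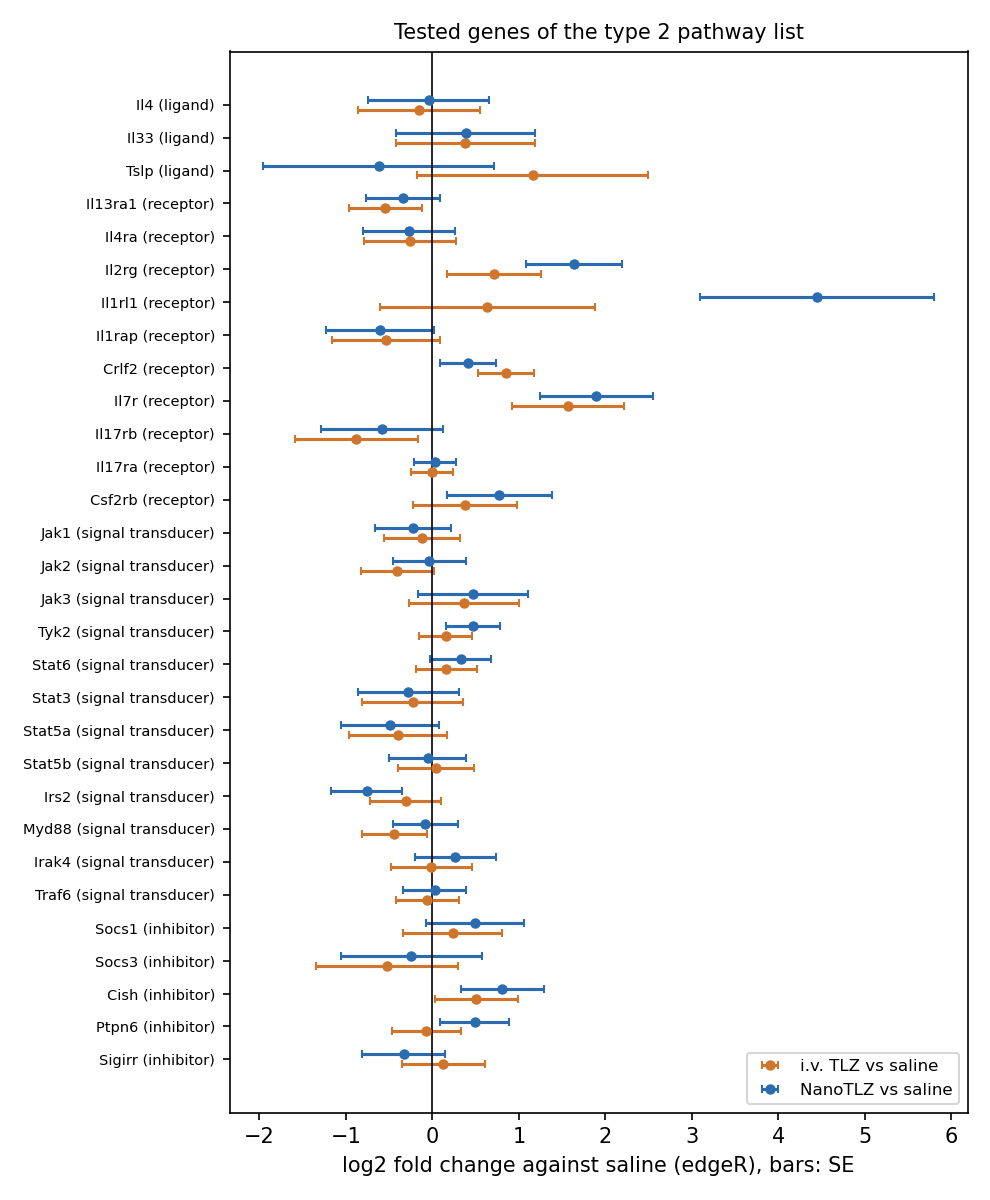
Log2 differences from saline (edgeR, bars SE) of the 30 tested genes of the type 2 pathway list after i.v. TLZ and NanoTLZ, by role. Most bars cross 0, and the farthest point is *Il1rl1* after NanoTLZ at 4.45, which rests on 1 tumor.

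None of the 12 signal transducers or 5 inhibitors in the list passed the edgeR test in any comparison or, with all 9 tumors, had an unadjusted p under 0.05. Without saline tumor 3, *Jak1*, *Jak2*, *Stat5a* and *Socs3* were lower in both treatments together at an unadjusted p under 0.05, beside 9.27% of all genes in either direction, and none passed the adjusted threshold. Without saline tumor 1, their log2 differences were 0.31, 0.23, -0.17 and -0.21, so the direction for *Jak1* and *Jak2* depended on the saline tumor left out. Without i.v. TLZ tumor 2, *Irs2*, an adaptor of insulin and interleukin-4 receptors, was lower in both treatments together by the same measure, at -0.74 ± 0.32 (unadjusted p = 0.0479, edgeR adjusted p = 0.357), beside 13.8% of all genes. This difference was -0.05 ± 0.34 without saline tumor 3, which had the highest *Irs2*, at 64.3 CPM. Saline tumor 3 was the lowest of the 9 tumors for 18 of the 30 pathway genes, against 24.4% of all tested genes. *Stat3*, a transducer shared by many cytokines, had 185 CPM there and 326 to 1005 CPM in the other 8 tumors. *Socs3*, a feedback inhibitor of cytokine signaling, had 40.0 CPM there and 170.1 to 889 CPM elsewhere. The part of the basal and muscle transcripts of this tumor in these levels was not tested.

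Genes known to respond to interleukin-4 and interleukin-13 were listed separately, with 17 of 25 passing the filter. edgeR called 0 of them in any comparison, while genes with an unadjusted p under 0.05 numbered 5 for i.v. TLZ, all higher (10.4% of all genes), and 6 for NanoTLZ, 5 higher and 1 lower (8.99%). They numbered 4 for both treatments, all higher (13.1%), and 2 between the formulations, 1 higher and 1 lower (1.68%). For both treatments, the count was 8, 6 higher and 2 lower, without i.v. TLZ tumor 2 (13.8% of all genes in that fit), 6, 5 higher and 1 lower, without saline tumor 3 (9.27%) and 3, all higher, without saline tumor 1 (12.8%). limma-voom also called 0 in each comparison. DESeq2, with an adjusted p for 21 of the 25 genes in these comparisons, called 3 for both treatments against saline (*Ccl17*, *Ccl22* and *Mgl2*, beside 1.56% of all genes) and 1 for i.v. TLZ against saline (*Ccl17*, beside 1.1%). It called 0 in the other comparisons. Their median log2 difference for both treatments was 0.87, beside -0.06 over all tested genes. Without saline tumor 1 it was 0.54 (0.01 over all tested genes), without saline tumor 3 1.06 (0.03) and without i.v. TLZ tumor 2 0.67 (-0.07). For the same comparison all 10 leukocyte and macrophage markers were positive, with a median of 0.64, and all 8 T cell markers, with a median of 1.08, and edgeR called none of them. After i.v. TLZ alone, *Ptprc*, *Fcgr1*, *Cd4* and *Trac* of these lists were negative. For both treatments, all 9 fibroblast markers (median 0.42) and all 7 endothelial markers (0.31) were also positive. All 8 proliferation genes (-1.46) and all 8 skeletal muscle markers (-6.38) were negative. The part of these cells and genes in the levels of the targets was not tested. All 6 treated tumors lay above all 3 saline tumors for 2 of the 17 genes and below for 0, while 2.81% and 2.66% of all tested genes did so.

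The 2 genes were the chemokines *Ccl17* and *Ccl22*, ligands of CCR4 made by dendritic cells and macrophages. *Ccl17* (ENSMUSG00000031780) had 0.172, 0.9055 and 0.413 CPM in the saline tumors. It had 2.04, 3.83 and 3.08 CPM in the i.v. TLZ tumors and 1.83, 3.38 and 1.035 CPM in the NanoTLZ tumors. Here, unlike for *Il13ra2*, i.v. TLZ tumor 2 was the highest. The log2 difference of both treatments from saline was 2.30 ± 0.65 (edgeR adjusted p = 0.284), higher in 6 of 6 tumors, and DESeq2 gave an adjusted p of 0.0199, with a range of 0.0199 to 0.487 over the settings run.

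*Ccl22* (ENSMUSG00000031779) had 0.172, 0.334 and 0.505 CPM in the saline tumors. It had 1.65, 1.585 and 2.60 CPM in the i.v. TLZ tumors and 2.455, 1.15 and 0.517 CPM in the NanoTLZ tumors. NanoTLZ tumor 3, with 10 counts, was level with saline tumor 3, with 11 counts in a larger library. The log2 difference of both treatments from saline was 2.25 ± 0.65 (edgeR adjusted p = 0.284), and DESeq2 gave 0.0437, with a range of 0.0437 to 0.487 over the settings run. Neither chemokine passed the test between the formulations, with log2 differences of -0.52 ± 0.66 for *Ccl17* and -0.50 ± 0.65 for *Ccl22* (edgeR adjusted p = 1.0).

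The promoter of *Ccl17* is shown as that of a listed STAT6 target whose treated and saline tumors did not overlap. It is chr8:94810203-94810502 on the plus strand and held TTCNNNNGAA 154 bases and TTCNNNGAA 99 bases before the start, both in capitals. The *Ccl22* promoter held none of the 3 motifs.
Ccl17: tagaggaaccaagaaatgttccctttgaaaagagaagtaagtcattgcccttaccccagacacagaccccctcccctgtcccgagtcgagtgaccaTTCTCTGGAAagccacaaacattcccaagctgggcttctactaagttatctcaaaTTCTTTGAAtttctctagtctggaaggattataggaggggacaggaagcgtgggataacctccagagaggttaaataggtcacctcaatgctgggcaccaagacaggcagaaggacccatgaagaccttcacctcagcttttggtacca

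Other listed targets did not follow this pattern. *Mgl2*, a lectin of alternatively activated macrophages, had 0.9155, 1.05 and 3.72 CPM in saline and 3.47 to 10.4 CPM in treated tumors, with overlap at saline tumor 3. Its log2 difference for both treatments was 1.92 ± 0.62 (edgeR adjusted p = 0.288), and 2.89 ± 0.60 (adjusted p = 0.245) without saline tumor 3. *Chil3* had 0.780 to 1.62 CPM in saline and 1.25 to 11.4 CPM in treated tumors, with i.v. TLZ tumor 2 and NanoTLZ tumor 1 inside the saline range.

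The last list held 8 genes linked to IL-13Rα2 function, such as *Tgfb1*, AP-1 subunits and *Chil1*, and all 8 were tested. edgeR, DESeq2 and limma-voom called 0 of 8 in every comparison, and 1 had an unadjusted p under 0.05 by edgeR for i.v. TLZ (10.4% of all genes), for NanoTLZ (8.99%) and for both treatments (13.1%), a share near that of all genes. Without saline tumor 1, the genes were *Mmp8* and *Tgfb1* for i.v. TLZ (10.4% of all genes in that fit), none for NanoTLZ (9.95%) and *Mmp8* for both treatments (12.8%). Without saline tumor 3, *Chil1* was added for NanoTLZ (6.66%). Without i.v. TLZ tumor 2, *Mmp8* was added for i.v. TLZ (9.48%) and for both treatments (13.8%). The gene with all 9 tumors was *Fosl1*, an AP-1 subunit, with 15.7, 27.9 and 2.43 CPM in the saline tumors. It had 37.5, 38.9 and 67.7 CPM in the i.v. TLZ tumors and 51.9, 56.0 and 33.9 CPM in the NanoTLZ tumors, and saline tumor 3 was the lowest. It was the 1 gene of the 8 with all 6 treated tumors above all 3 saline tumors, beside 2.81% of all tested genes, and 0 of the 8 had them all below, beside 2.66%, so nothing is read from this count. The log2 difference of both treatments from saline was 1.64 ± 0.61 (edgeR adjusted p = 0.329), and 1.15 ± 0.37 (adjusted p = 0.440) without saline tumor 3. Without saline tumor 1 it was 1.66 ± 0.77 (adjusted p = 0.399). The other AP-1 subunits *Fos*, *Jun* and *Junb* had log2 differences of -0.32 ± 0.46, -0.20 ± 0.34 and 0.41 ± 0.38, and no difference between the subunits was tested. Without saline tumor 1 these were 0.61, 0.21 and 0.70, and without saline tumor 3 they were -0.69, -0.50 and 0.04. The sign for *Fos* and *Jun* thus depended on the saline tumor left out. *Fos*, *Jun* and *Junb*, like *Fosl1*, were lowest in saline tumor 3, at 25.9, 100.6 and 139.9 CPM.

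**Figure D4:**
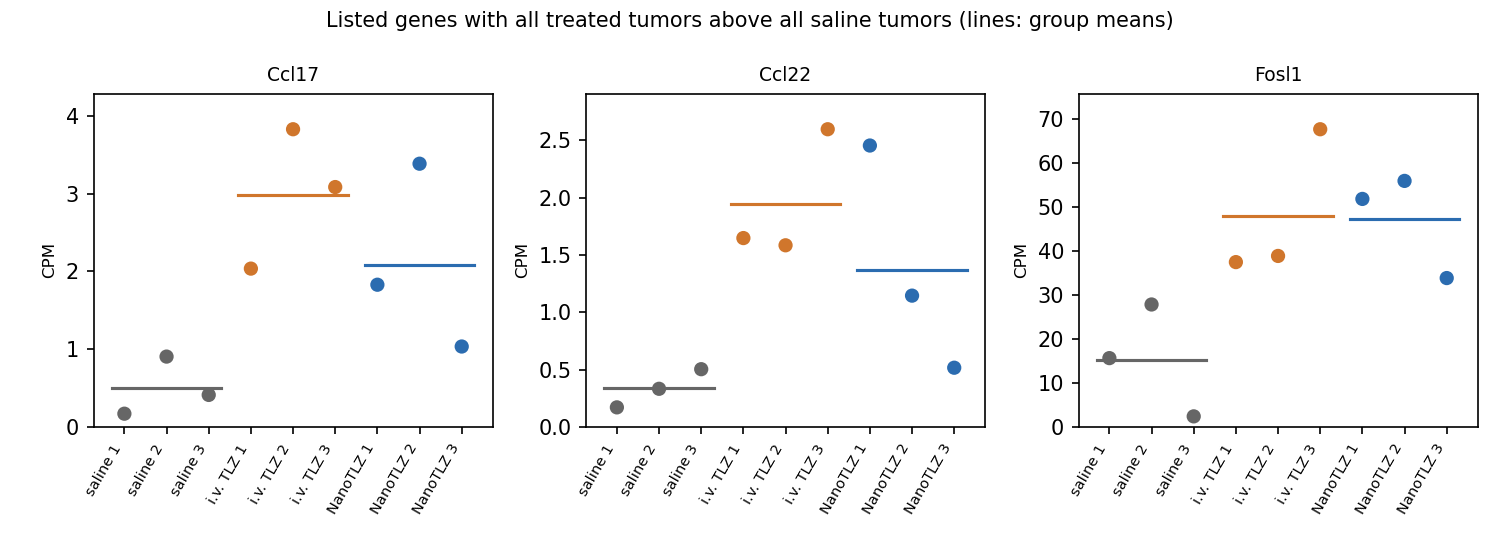
CPM of *Ccl17*, *Ccl22* and *Fosl1* in each of the 9 tumors, with lines at the group means. All 6 treated tumors lie above the 3 saline tumors, narrowly so for *Ccl22* in NanoTLZ tumor 3 at 0.517 CPM.

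The 10 tested genes whose log2 CPM correlated most with *Il13ra2* over the 9 tumors had Pearson r from 0.926 to 0.962. Since they were picked as the highest of all tested genes, these are descriptions. Among them were *Podn* (r = 0.936), encoding a matrix proteoglycan, *Myo7a* (r = 0.929), *Gpnmb* (r = 0.926), a glycoprotein of macrophages and other cells, *Ptgir* (r = 0.948), the prostacyclin receptor, and *Olfml2b* (r = 0.931). The others were *C230024C17Rik*, *Vps16*, *Ppp4r1l-ps*, *Fam169b* and *H2-M9*. With group means removed, r ranged from 0.872 to 0.973 over the 10 genes, and without i.v. TLZ tumor 2 and saline tumor 1, the tumors farthest from the median of *Il13ra2*, from 0.891 to 0.986. Spearman rho over the 9 tumors ranged from 0.767 to 0.933.

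*Podn* had 1.20, 1.19 and 1.28 CPM in the saline tumors and 8.77, 0.437 and 4.60 CPM in i.v. TLZ tumors 1, 2 and 3. *Gpnmb* had 4.41, 4.67 and 3.35 CPM in the saline tumors and 29.4, 4.54 and 40.7 CPM in the i.v. TLZ tumors. In both, as for *Il13ra2*, i.v. TLZ tumor 2 lay within or below the range of the saline tumors while the other 5 treated tumors were above them. The r with *Il13ra2* was 0.726 for *Stat6*, 0.422 for *Il1rl1*, 0.315 for *Il33*, 0.121 for *Il4ra*, -0.141 for *Il13ra1* and -0.479 for *Tslp* (n = 9 tumors, no test).

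Marker genes of cell types that could carry *Il13ra2* were summed per tumor. All 9 fibroblast markers were detected and tested, with *Col1a1* the most abundant. Their sum was 2099, 1524 and 1513 CPM in the saline tumors, 6146, 1027 and 2565 CPM in i.v. TLZ tumors 1, 2 and 3, and 3176, 2627 and 1755 CPM in the NanoTLZ tumors. I.v. TLZ tumors 1 and 2 were the highest and lowest for this sum, as for *Il13ra2*, but the sum is mostly *Col1a1*, *Col1a2* and *Col3a1*. *Dcn* and *Pdgfra* were highest in NanoTLZ tumor 2, with 155 and 57.8 CPM. The log2 sum correlated with *Il13ra2* at r = 0.849 (n = 9), and at r = 0.791 without i.v. TLZ tumor 2 (n = 8). The part of fibroblast content in the level of *Il13ra2* was not tested.

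All 10 leukocyte and macrophage markers were tested, with *C1qa* the most abundant. Their sum was 802, 2198 and 503 CPM in saline, 2008, 988 and 1793 CPM after i.v. TLZ and 1974, 2122 and 2769 CPM after NanoTLZ. All 8 T cell markers were tested, with *Cd4* the most abundant, and their sum was 5.78, 15.9 and 12.3 CPM in saline, 26.0, 2.84 and 11.7 CPM after i.v. TLZ and 39.7, 18.7 and 36.9 CPM after NanoTLZ. Both sums were lower in i.v. TLZ tumor 2 than in any other treated tumor, and their r with *Il13ra2* was 0.692 and 0.702 (n = 9), and 0.670 and 0.559 without it (n = 8). Proliferation genes and skeletal muscle markers had r of -0.544 and -0.513 (n = 9), and without i.v. TLZ tumor 2 these were -0.844 and -0.802 (n = 8), farther from 0 than the 0.791 of the fibroblast sum. The part of these cells and genes in the level of *Il13ra2* was not tested.

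**Figure D5:**
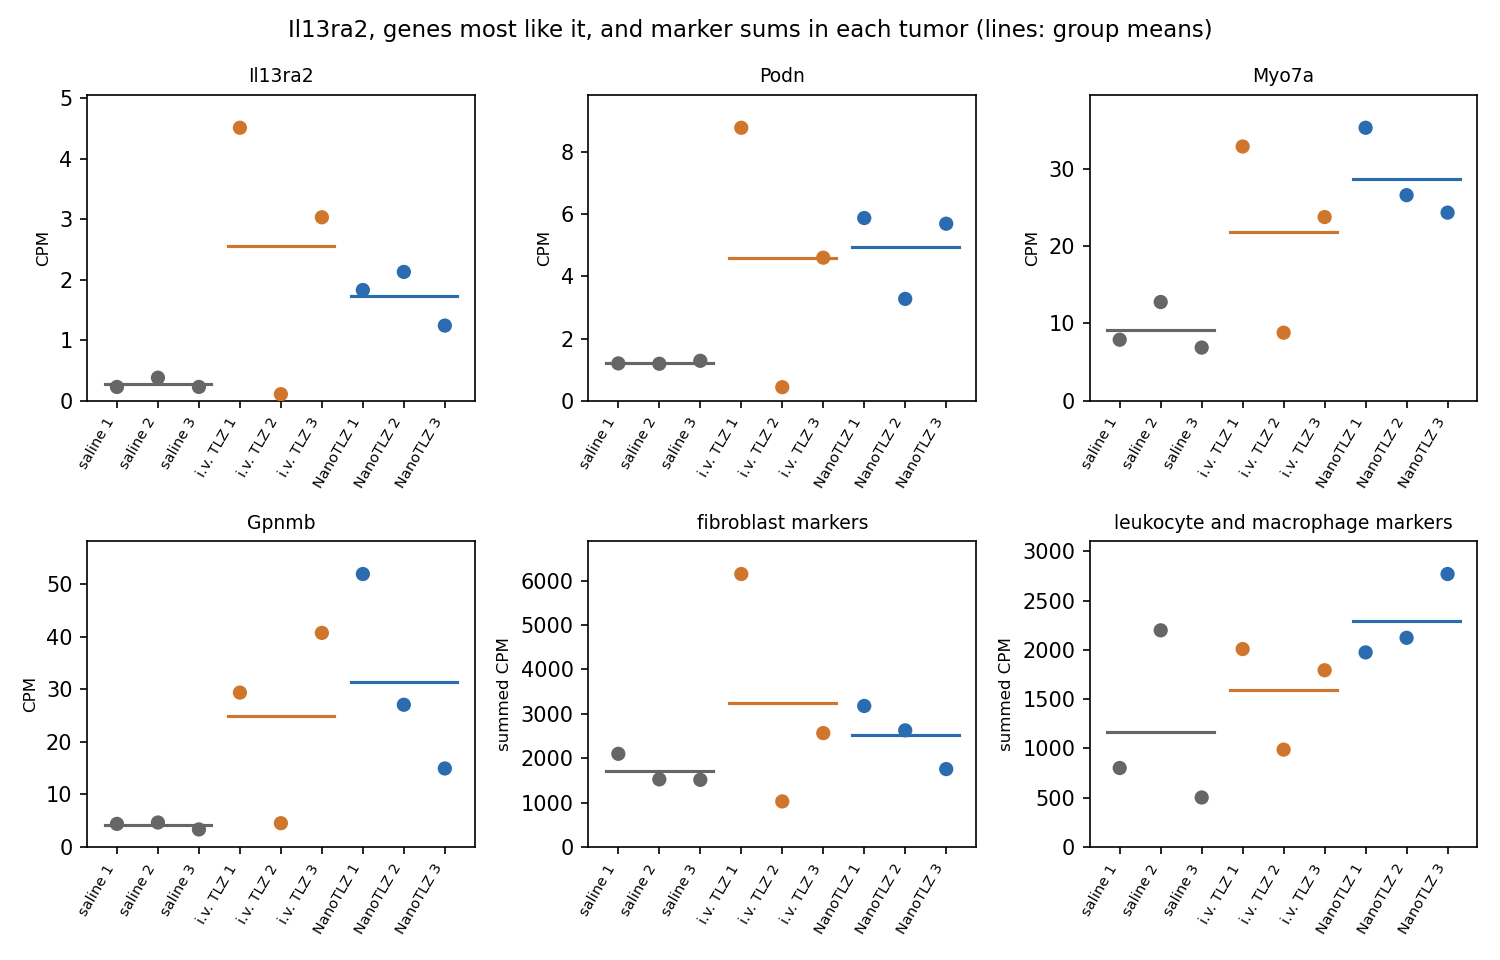
CPM of *Il13ra2*, *Podn*, *Myo7a* and *Gpnmb*, and summed CPM of 9 fibroblast and 10 leukocyte and macrophage markers, in each of the 9 tumors with lines at the group means. In i.v. TLZ tumor 2 all 6 quantities lie below the other treated tumors.

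Markers of mast cells and of eosinophils and basophils had low sums. Of 8 mast cell markers 3 passed the filter, with *Hdc* the most abundant, *Fcer1a* at 0 counts in all tumors and sums of 1.73 to 10.1 CPM. Of 7 eosinophil and basophil markers 4 passed, with *Siglecf* the most abundant, *Prg2* and *Cd200r3* at no more than 3 counts in any tumor and sums of 0.642 to 19.1 CPM. NanoTLZ tumor 2, the tumor with high *Il1rl1*, had sums of 2.565 CPM for mast cell and 6.28 CPM for eosinophil and basophil markers, within the range of the other tumors. Markers of innate lymphoid and Th2 cells summed to 77.85 to 196 CPM, with *Il10ra* the most abundant over the 9 tumors, a gene that other leukocytes also express. The highest sum, in i.v. TLZ tumor 2, was mostly *Areg* (75.3 CPM) and *Gata3* (73.4 CPM), which mammary epithelium also expresses, with 23.5 CPM of *Il10ra*.

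The annotated protein-coding neighbors of *Il13ra2* on chromosome X were *Htr2c*, 186199 bases away, with 3 counts in all tumors, and Vmn1r239-ps, 23556 bases away, with 0 counts.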

How the data were processed

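Per-gene read counts were what the authors deposited, not normalized. The submitters' processing notes name TopHat2, DESeq2 and mm10, and the counting program, annotation and strand setting were not given in the sources used here. The table listed 35275 genes in 9 tumors, grouped by their labels. Symbols and positions came from GENCODE M21 (GRCm38), which held 34490 of the identifiers, and promoters from RefSeq (GRCm38.p6). *Chi3l1* was matched as *Chil1* through RefSeq synonyms. The keratinocyte marker *Flg* was not analysed here.

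Counts were filtered with filterByExpr (minimum count 10, minimum total 15), scaled by TMM and fitted to all 9 tumors with 1 coefficient per group in edgeR 4.0.16 (R 4.3.3), with quasi-likelihood F-tests and Benjamini-Hochberg adjustment over 15821 genes. An adjusted p under 0.05 was called. The SE of an edgeR log2 difference was derived from its test, as the absolute difference divided by the square root of F. Log2 CPM used a prior count of 2. Poisson intervals were computed at 95% and the floor was 3 counts (scipy 1.17.1). Alternatives were DESeq2 1.42.0, limma-voom (limma 3.58.1), other scalings, filters and dispersions, fits to the groups compared, and each tumor left out in turn. Correlations of marker sums without saline tumor 1, saline tumor 3 or i.v. TLZ tumor 2 were added after seeing the data. The methods were tested on simulated data, in which the changed genes were drawn from levels above that of *Il13ra2*. How well changes are found at levels as low as that of *Il13ra2* was not tested.

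Genes were named if they were among the 7 genes, the 3 lists (type 2 pathway, targets, IL-13Rα2 partners), the 10 genes most correlated with *Il13ra2* or its neighbors. The members and lists were chosen with earlier results of these data known. The motifs, *Krt5*, *Stat3*, *Socs3*, *Gata3* and *Areg* were picked for mention after their values were seen.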

Additional observations from a re-analysis of the deposited data

How the results depend on the processing

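The count of called type 2 pathway genes was 0 in all 4 comparisons under every setting run. Those with an unadjusted p under 0.05 numbered 0 to 6 for i.v. TLZ, 2 to 6 for NanoTLZ, 1 to 8 for both treatments and 0 to 2 between formulations. In the main fit the shares of all genes were 10.4%, 8.99%, 13.1% and 1.68% in this order. Shares for other settings are given above only without saline tumor 1, saline tumor 3 or i.v. TLZ tumor 2, so nothing is read from these ranges. The log2 difference of *Il13ra2* between NanoTLZ and i.v. TLZ was -0.56, changed sign to 0.43 with limma-voom, and ranged from -1.12 to 0.14 when single tumors were left out, and the cause was not tested. Against saline no test was made, and the positive sign of *Il13ra2* was set by its choice as higher in treated tumors. Over the settings that gave a value, its log2 difference ran from 2.09 to 3.72 for i.v. TLZ, 2.46 to 2.88 for NanoTLZ and 2.31 to 3.16 for both treatments. The 3.72 came from leaving out i.v. TLZ tumor 2, the treated tumor that lay below every saline tumor.

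None of the other 6 genes passed the threshold under any setting that gave an adjusted p. DESeq2 gave none for *Il1rl1* on 9 tumors, nor on 2 groups for NanoTLZ against saline and against i.v. TLZ. Some differences changed sign, the cause of which was not tested. With limma-voom *Il4ra* was 0.04 for i.v. TLZ, 0.07 for NanoTLZ and 0.06 for both treatments against saline, and *Tslp* was -0.07 for both treatments. For NanoTLZ against i.v. TLZ, *Il4ra* was -0.01 and became 0.01 with DESeq2 on 9 tumors, 0.00 with DESeq2 on 2 groups, 0.03 with limma-voom, 0.01 with edgeR on 2 groups, 0.01 with RLE, 0.02 with upper quartile scaling and 0.02 without a filter. When single tumors were left out, *Il4ra* ranged from -0.70 to 0.22 for i.v. TLZ, -0.69 to 0.24 for NanoTLZ, -0.70 to 0.23 for both treatments and -0.15 to 0.25 between formulations. *Il13ra1* ranged from -0.69 to 0.22 for NanoTLZ and -0.80 to 0.10 for both treatments. *Il33* ranged from -0.22 to 2.03 for i.v. TLZ, -0.05 to 2.06 for NanoTLZ, -0.06 to 2.04 for both treatments and -0.29 to 0.60 between formulations. *Tslp* ranged from -1.48 to 2.55, -1.71 to 0.78, -1.05 to 1.66 and -2.88 to 0.86 in the same order. *Stat6* ranged from -0.05 to 0.41 for i.v. TLZ and -0.09 to 0.33 between formulations.

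With DESeq2 on 9 tumors, *Ccl17* passed the threshold for i.v. TLZ and for both treatments and *Ccl22* for both treatments. The filter of 10 counts in every tumor removed *Il13ra2*, *Il1rl1*, *Tslp*, *Ccl17* and *Ccl22*, and in the edgeR fit restricted to saline and i.v. TLZ the low count filter removed *Il13ra2*. Fits to 2 groups do not apply to both treatments against saline. No paired analysis was possible because replicate numbers only follow the order of the samples and no label links tumors across groups. Depth limits *Il13ra2* in the 4 tumors with 2 to 8 counts.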

Other observations

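Marker sums not given elsewhere were as follows. Endothelial markers summed to 68.6 to 231.5 CPM over the 9 tumors, with *Vwf* the most abundant, and basal epithelial markers to 304 to 3633 CPM, with *Krt14*. Keratinocyte markers summed to 6.33 to 27.3 CPM, with *Krt10*, and adipocyte markers to 5.85 to 66.5 CPM, with *Fabp4*. Cartilage markers, with *Col2a1* the most abundant, summed to 242 to 354 CPM in saline and 439 to 1211 CPM in all 6 treated tumors. Of the 7 cartilage markers 5 were tested, 4 positive and 1 negative for both treatments, with a median log2 difference of 0.21. Among single tested genes, 2.81% had all 6 treated tumors above all 3 saline tumors, so nothing is read from this sum. For both treatments against saline, where 0.019% of all tested genes had an edgeR adjusted p under 0.05, edgeR called *Myh4* of the 8 muscle markers and *Col2a1* of the cartilage markers. It called no gene of the other marker lists. The 8 proliferation genes summed to 564.5 to 1911 CPM in saline and 239.9 to 525 CPM in treated tumors. Among single tested genes, 2.66% had all 6 treated tumors below all 3 saline tumors.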
